A study of Mus musculus with 12 samples.

Results

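The *Klk1* kallikrein cluster is a row of closely related serine protease genes on mouse chromosome 7, and 10 of its protein-coding genes are described here among the 55304 genes of the table: *Klk1*, *Klk1b4*, *Klk1b5*, *Klk1b8*, *Klk1b16*, *Klk1b21*, *Klk1b22*, *Klk1b24*, *Klk1b26* and *Klk1b27*. They were chosen by gene symbol after their measured values in the 4 groups were known, so their differences between groups are given as a description, with no p-value. All 10 passed the filter on low values, which kept the 24736 genes above 0.1 normalised counts in at least 3 libraries. Because the copies are so alike, the summed signal of the 10 members is reported beside each gene.

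The libraries came from male mice on the C57Bl6/J background that all carried the *Pomc*-eGFP transgene, in which the promoter of *Pomc*, the precursor gene of adrenocorticotrophic hormone (ACTH), drives enhanced green fluorescent protein (eGFP). Control mice (group A) drank plain water. DEX mice (group B) received the synthetic glucocorticoid dexamethasone at 2.5 µg/ml in drinking water for 4 weeks, and groups C and D had the same treatment followed by 7 and 28 days without it. Mice were 8 weeks old when the experiment began, and the start of DEX was staggered so that all groups were collected at one end point. Cells positive for eGFP were sorted from dissociated anterior pituitaries of 9 mice per group as 3 pools, each of 3 pituitaries by the labels (elsewhere the methods give 2 to 3), so that n = 3 pools in every group. The sort enriches for cells in which this transgene is active and not for a single cell type, and a pool averages its mice.

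Tissue kallikreins are secreted proteases that cut a limited set of precursor proteins. *Klk1*, the true tissue kallikrein, releases kinin peptides from kininogens, and kinins act on the bradykinin receptors. The mouse *Klk1b* copies arose by duplication of this gene and are best known from the salivary gland and testis, where androgens and other hormones control them. In the rodent pituitary, glandular kallikrein is known from lactotrophs and from the intermediate lobe.

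Between its outermost members the cluster spans chr7:43950664-44229618 on GRCm38 (279 kb), with all 10 members on the plus strand. GENCODE M21 places 23 kallikrein genes in this stretch, 14 of them protein-coding and 9 pseudogenes. Each member has 5 exons, and their merged exons cover 839 to 1391 bases. Coding sequences of the 45 pairs of members were 81.1% to 95.2% identical, with a median of 86.3%. *Klk1* and *Klk1b5*, which lie next to each other at the upper end, were the closest pair at 95.2%. *Klk1b16* and *Klk1b26*, the most abundant pair on DEX, shared 92.7% of their coding bases, and *Klk1b21* matched both *Klk1b24* and *Klk1b27* at 94.0%.

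This likeness limits how a read can be assigned. Of the 50-base windows of the members' transcripts, 10.1% (*Klk1b16*) to 33.9% (*Klk1b24*) were also found in another gene. That share fell to between 0% and 6.08% for windows of 100 bases, and no window of 150 bases was shared in any of the 10 transcripts. Each mate of a read pair was 150 bases long before trimming, and the authors discarded alignments with a mapping quality under 20. Reads of fragments that were short or lay in the shared stretches may still have been left out or given to the wrong copy. The summed signal is safer where a read was given to the wrong member, but it does not recover reads that were left out. *Klk1* overlaps the antisense gene *Gm10109* and *Klk1b8* overlaps *Gm44756*. The authors counted with a strand setting, but amplified cDNA of this kind does not keep the strand, so reads of these overlapping genes cannot be told apart.

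The promoters of the members are shown because the genes were high in the same pools. RefSeq promoters (GRCm38.p6, 250 bases before to 50 after each start) were found for all 10. Pairs of these promoters were 77.6% to 97.7% identical over their aligned bases, so matches in several copies are not independent. The hexamer TTTAAA, searched on both strands, stood in 9 of the 10 members, all but *Klk1*, and in 13.2% of the 32851 promoters. The longer TATTTAAAA, which contains it, stood in *Klk1b16* and *Klk1b26* and in 0.731% of all promoters. It also stood before *Klk1b11*, a copy outside the 10 members that had at most 16 reads in any library. The 30 bases around the box are printed for 5 members, 5′ to 3′, with the box in capitals.

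Klk1b16: gagaactcaggtaTTTAAAatctcctgagg
Klk1b26: gagaatgagggtaTTTAAAatctcctgagg
Klk1b5: gagaatgagggttTTTAAAgtctccctgag
Klk1b27: gagaatgagcgttTTTAAAgtctcccgagg
Klk1b8: gagaatgagggttTTTAAAgtcaccccaag

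These windows lie on the plus strand at chr7:44137238-44137267 (*Klk1b16*), chr7:44012639-44012668 (*Klk1b26*), chr7:44216419-44216448 (*Klk1b5*), chr7:44052260-44052289 (*Klk1b27*) and chr7:43950609-43950638 (*Klk1b8*). *Klk1b22* has the same 30 bases as *Klk1b5*, and *Klk1b8*, the member that stayed near the detection floor, differs from them at 3 of 30 bases. The same 30 bases also stand before *Klk1b9*, a copy outside the 10 members with at most 4 reads in any library, and the box itself stands before *Klk1b1*, which had no read. The box begins 17 to 48 bases before the RefSeq start in the 8 members whose window could be shown. GENCODE M21 starts *Klk1b5*, *Klk1b16* and *Klk1b26* further upstream, so that their windows lie inside the gene by that annotation. In *Klk1b21* the hexamer begins 4 bases after the RefSeq start (chr7:44102292). GENCODE M21 starts *Klk1b21* further downstream, at chr7:44102328, so that by that annotation the hexamer lies before the gene. Which start is used in these cells was not tested. The palindromic glucocorticoid receptor site (AGAACA and TGTTCT, 3 bases apart) was in none of the 10 promoters and in 0.00913% of all promoters. Its half-site AGAACA was in 1 member, *Klk1b24*, and in 19% of all promoters. The motif TATAAA was in none of the members and in 13.6% of all promoters. A motif is a match of letters in this window and was not measured for binding.

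Values are CPM on a scaled library size as the authors deposited them, called normalised counts below. The 12 libraries held 7719894 to 12848078 reads on genes (median 10227504), and 1 read was worth 0.0787 to 0.127 normalised counts, so the low members rest on a few reads. *Pomc*, the defining corticotroph gene, was at 61010 ± 22900 in control and 5708 ± 2440 in DEX pools (SD, n = 3 pools each). Prolactin (*Prl*), the defining lactotroph gene, was also abundant, at 57310 ± 24000 in control and 56880 ± 14200 in DEX pools. The somatotroph gene *Gh* had higher means than both, at 131500 ± 78100 in control and 90370 ± 19900 in DEX pools. *Pax7*, the defining melanotroph gene of the intermediate lobe, had at most 3 reads in any library. A 2-group difference in sorted bulk cells cannot tell more cells of a type from more RNA per cell.

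Together the members were high on DEX and close to control after its withdrawal. Their summed signal was 16.4, 16.96 and 21.7 normalised counts in the control pools and 130.3, 88.5 and 215.6 in the DEX pools. One week after withdrawal it was 18.6, 33.1 and 12.4, and after 4 weeks it was 15.6, 18.2 and 30.3. The 3 DEX pools lay above all 9 other pools, and both recovery groups overlapped control.

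The sum averaged 18.4 ± 2.92 over the 3 control pools and 144.8 ± 64.8 over the 3 DEX pools (SD). Its mean was 21.4 ± 10.6 at 1 week and 21.4 ± 7.86 at 4 weeks. The DEX mean was 7.88-fold that of control, with a log2 fold change of 2.89 (SE 0.45) on the log2(value + 0.1) scale used throughout. It was 6.76-fold that of the 1 week group and 6.78-fold that of the 4 week group. Against control, the log2 fold change of the sum was 0.11 (SE 0.45) at 1 week and 0.17 (SE 0.45) at 4 weeks. In reads, the sum rested on 144 to 209 per control library and 1082 to 1923 per DEX library, then on 112 to 260 at 1 week and 166 to 336 at 4 weeks.

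**Figure D1:**
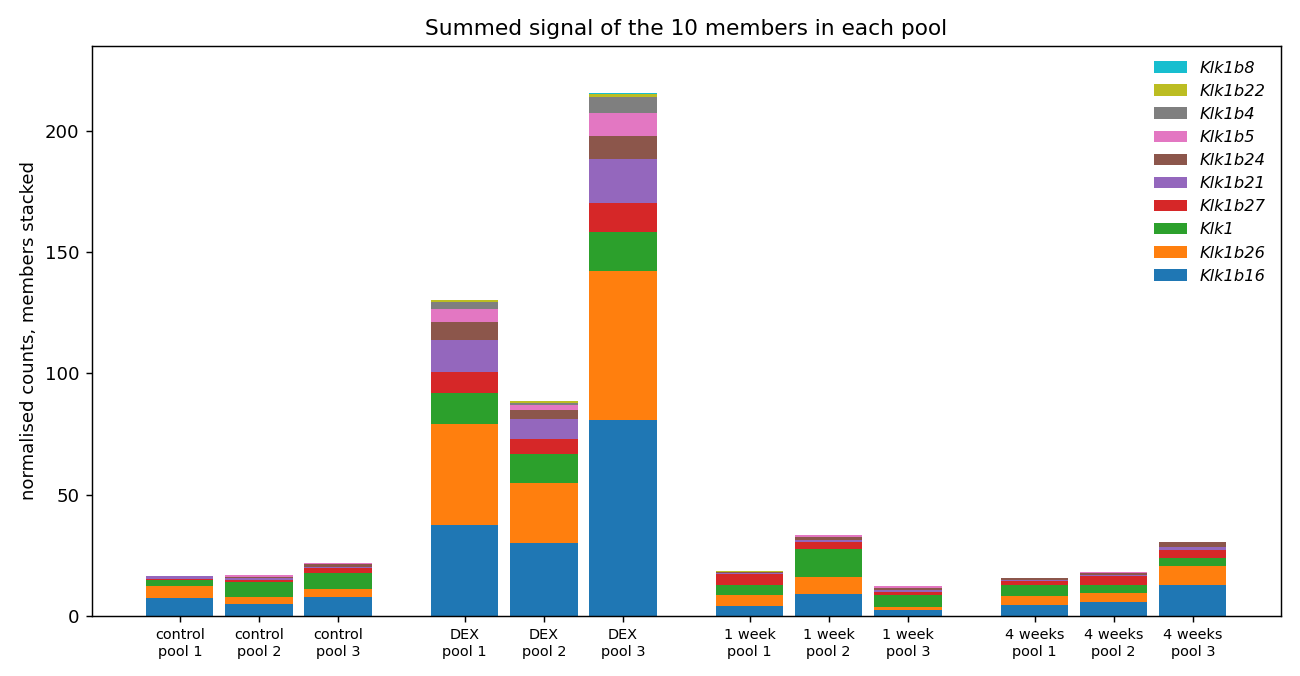
Summed signal of the 10 members in each of the 12 pools, as stacked bars of normalised counts (linear axis from 0), coloured by member. The 3 DEX pools reach 88.5 to 215.6 and the other 9 pools 12.4 to 33.1, with *Klk1b16* and *Klk1b26* as the broadest bands in the DEX pools.

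*Klk1b16* and *Klk1b26* made up most of the signal on DEX. *Klk1b16* (chr7:44136767-44141610), the gene of γ-renin, stood at 7.40, 4.95 and 7.61 normalised counts in the control pools and at 37.6, 30.1 and 80.7 in the DEX pools. It was at 3.99, 9.18 and 2.22 at 1 week and at 4.62, 5.69 and 12.8 at 4 weeks. All DEX pools exceeded every other pool, and the mean on DEX was 7.44-fold that of control (log2 fold change 2.77, SE 0.51).

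*Klk1b26* (chr7:44012168-44016968), whose product cuts prorenin, was at 4.80, 2.95 and 3.59 normalised counts in control and at 41.4, 24.6 and 61.6 on DEX. Recovery pools held 4.66, 6.63 and 1.45 at 1 week and 3.70, 3.72 and 7.58 at 4 weeks. The DEX mean was 11.3-fold that of control (log2 fold change 3.39, SE 0.52), again with no overlap between DEX and any other group. *Klk1b16* and *Klk1b26* together held 57.4 ± 14.7% of the summed reads in control, 62.8 ± 2.81% on DEX, 41.2 ± 10.2% at 1 week and 57.4 ± 8.54% at 4 weeks (SD over 3 pools).

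Among the members with reads in every library, the true tissue kallikrein had the smallest ratio of DEX to control. *Klk1* (chr7:44225360-44229618) was at 2.60, 6.01 and 6.42 normalised counts in control, 12.8, 12.02 and 16.04 on DEX, 3.99, 11.6 and 5.003 at 1 week and 4.25, 3.17 and 3.52 at 4 weeks. Its DEX pools lay above all others, but only narrowly above 1 week pool 2. The DEX mean was 2.72-fold that of control (log2 fold change 1.52, SE 0.44). *Klk1* thereby held 26.9 ± 10.1% of the members' summed reads in control and 10.3 ± 3.1% on DEX (SD, n = 3 pools each), and its lowest control share, 15.8%, lay above its highest DEX share, 13.6%.

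*Klk1b21*, *Klk1b24* and *Klk1b27* are close in sequence and are known from Leydig cells of the testis. *Klk1b21* (chr7:44102328-44106583) was at 1.02, 0.589 and 0.326 normalised counts in control and 13.4, 8.09 and 18.3 on DEX. It was then at 0.190, 0.765 and 0.445 at 1 week and 0.185, 0.438 and 0.993 at 4 weeks. The 20.5-fold ratio of the DEX to the control mean was the highest of the members with reads in control (log2 fold change 4.20, SE 0.67). Its share of the summed reads was 3.73 ± 2.37% in control and 9.31 ± 0.922% on DEX.

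*Klk1b24* (chr7:44188236-44192455) and *Klk1b27* (chr7:44052290-44056712) were the members whose mean stayed furthest above control after withdrawal. *Klk1b24* was at 0.157, 0.471 and 1.196 normalised counts in control, 7.54, 3.84 and 9.31 on DEX, 0.665, 1.40 and 1.11 at 1 week and 0.832, 0.985 and 2.08 at 4 weeks. *Klk1b27* was at 0.393, 1.06 and 2.07 in control, 8.61, 6.13 and 11.9 on DEX, 4.66, 2.93 and 1.33 at 1 week and 1.94, 3.83 and 3.34 at 4 weeks. The DEX pools of both genes exceeded all others, and both recovery groups overlapped control.

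The means of *Klk1b24* were 11.3-fold control on DEX, 1.74-fold at 1 week and 2.13-fold at 4 weeks, with log2 fold changes of 3.51, 0.96 and 1.18 (SE 0.66 each). Those of *Klk1b27* were 7.57-fold, 2.54-fold and 2.59-fold, with log2 fold changes of 3.01, 1.35 and 1.49 (SE 0.60 each). Neither gene was called against control at either recovery time. At 1 week 0 genes of all those tested were called against control, so this says nothing particular about these genes. The share of all genes called at 4 weeks against control is not given. The share of *Klk1b27* in the summed reads was 6.05 ± 3.56% in control, 6.35 ± 0.744% on DEX, 14.9 ± 8.84% at 1 week and 14.8 ± 5.45% at 4 weeks.

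Among the low members, *Klk1b5* (chr7:44215945-44220703) was at 0, 0.707 and 0.544 normalised counts in control, 5.30, 2.29 and 9.42 on DEX, 0.0950, 0.637 and 0.556 at 1 week and 0.0924, 0.110 and 0 at 4 weeks. The control and DEX groups did not overlap, and the DEX mean was 13.6-fold that of control (log2 fold change 3.74, SE 0.86). At 4 weeks *Klk1b5* had 2 reads in all 3 libraries together, against 11 in control, too few to set those groups apart.

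*Klk1b4* (chr7:44207435-44211754), the α subunit of the nerve growth factor complex, had no read in any control or 4 week library and 2 reads at 1 week. On DEX it was at 2.57, 0.736 and 6.50 normalised counts, which rest on 31, 9 and 58 reads. Against a floor of 3 reads in each control library, the DEX mean was at least 10.7-fold higher.

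*Klk1b22* (chr7:44112673-44116922), a binding protein of epidermal growth factor, likewise had no read in the control libraries and was at 0.994, 0.654 and 1.35 normalised counts on DEX, from 12, 8 and 12 reads. Its DEX mean was at least 3.27-fold higher than the same floor in control. One and 4 weeks after withdrawal *Klk1b22* had 2 reads in all in each group.

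*Klk1b8* (chr7:43950664-43954941) was near the detection floor in every group, with 3 reads over the control libraries, 6 over the DEX libraries, 3 at 1 week and 0 at 4 weeks. Of the 6 reads on DEX, 5 came from pool 3. It is the only member whose DEX and control pools overlapped, and a difference was not detectable at this depth.

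**Figure D2:**
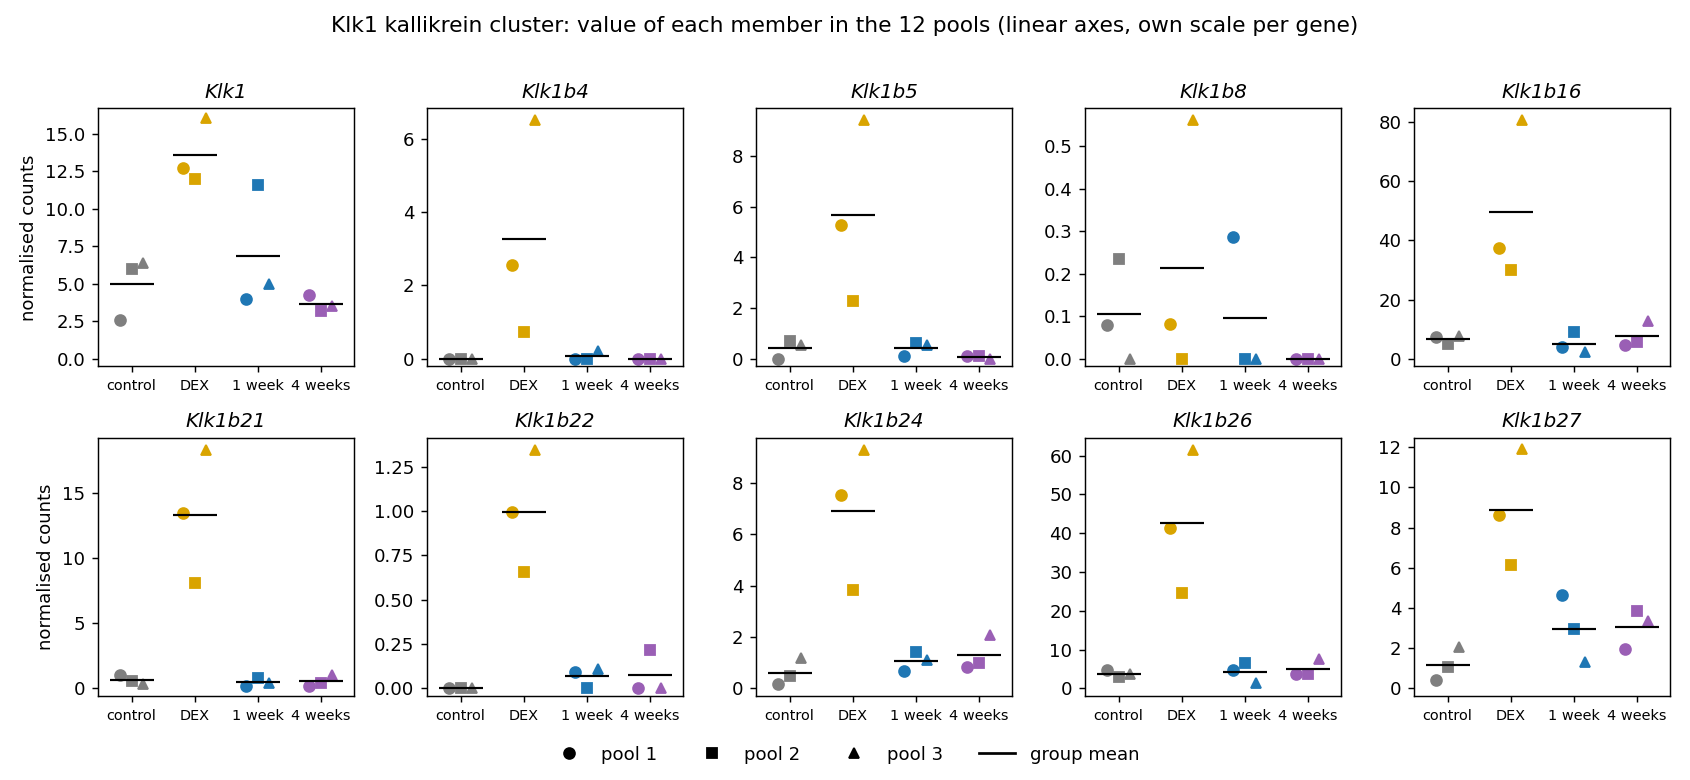
Normalised counts of each member in the 12 pools, 1 panel per gene with its own linear axis; points are pools (symbols give the pool number within its group) and lines are group means. In 9 panels, all but *Klk1b8*, the 3 DEX points lie above the 9 others, and in all 10 panels DEX pool 3 is the highest of the DEX points and pool 2 the lowest.

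Levels of different genes were compared per kilobase of merged exon. In control cells *Klk1b16* (4.80 normalised counts per kb) and *Klk1* (4.65) were the highest, followed by *Klk1b26* (2.73) and *Klk1b27* (1.32), and the other 6 were at 0.742 or lower. On DEX the order was *Klk1b16* (35.7 ± 19.7), *Klk1b26* (30.7 ± 13.3), *Klk1b21* (15.2 ± 5.85), *Klk1* (12.6 ± 1.99), *Klk1b27* (9.99 ± 3.25), *Klk1b24* (7.85 ± 3.18), *Klk1b5* (4.08 ± 2.57), *Klk1b4* (3.90 ± 3.51), *Klk1b22* (1.17 ± 0.404) and *Klk1b8* (0.250 ± 0.353; SD, n = 3 pools each). The ranges of mean ± SD of neighbours in this order overlapped, except those of *Klk1b22* and *Klk1b8*. *Klk1b26* was 1.94, 1.91 and 2.12 times *Klk1b21* per kb in the 3 DEX pools. By these lengths the mean *Klk1* level per kb was next to that of *Klk1b16* in control and below *Klk1b26* and *Klk1b21* on DEX. Against *Klk1b21* this order did not hold in every pool. *Klk1* was above *Klk1b21* in DEX pool 2 (11.2 and 9.29 per kb) and below it in pools 1 and 3. GENCODE starts *Klk1b5*, *Klk1b16* and *Klk1b26* upstream of their RefSeq starts, and their merged exons are the longest of the members. A model from the RefSeq start would shorten them and raise their levels per kb, so comparisons with these genes rest on the GENCODE models.

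Because these contrasts chose the members, the calls below are read as a description only. The limma F test over the 4 groups (adjusted p under 0.05, Benjamini-Hochberg over all genes tested) called 0.315% of genes and 4 members, *Klk1b4*, *Klk1b16*, *Klk1b21* and *Klk1b26*. In DEX against control, 0.109% of genes were called higher in DEX, among them *Klk1b4*, *Klk1b21* and *Klk1b26*. Both counts went to 0 members without DEX pool 1 or without DEX pool 3. The second did so too without control pool 2 or 3, and with only these 2 groups in the model. That 2-group model called 0.00404% of all genes tested (1 gene). Without pool 2 or pool 3 of the 1 week group the second was 6 and 7 members, and the first was 2 without 4 week pool 2. edgeR's quasi-likelihood F test on the recovered reads called 0.639% of genes and 6 members, the 4 above with *Klk1b5* and *Klk1b24*.

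Relative to DEX, 0.327% of genes were called lower at 1 week, among them the same 4 members as in the F test, and 0.461% lower at 4 weeks, among them these 4 with *Klk1b5* and *Klk1b22*. All 3 DEX pools lay above all 3 control pools in 9 of 10 members and in 6.61% of all genes tested. The corresponding counts were 9 of 10 members and 6.87% of genes for DEX against 1 week, and 9 of 10 members and 9.67% of genes for DEX against 4 weeks. All pools at 1 week lay above all control pools in 0 of 10 members and 3.47% of genes, and at 4 weeks in 0 of 10 members and 6.77% of genes. These contrasts share the control or DEX pools and are not independent of each other.

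The median log2 fold change of the 10 members was 3.40 in DEX against control, beside -0.02 over all genes tested. At 1 week and 4 weeks against control it was 0.34 and 0.05, beside 0.00 and 0.00. These medians include fitted values of *Klk1b4* and *Klk1b22*, which have no control reads and for which the value depends on the pseudocount.

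**Figure D3:**
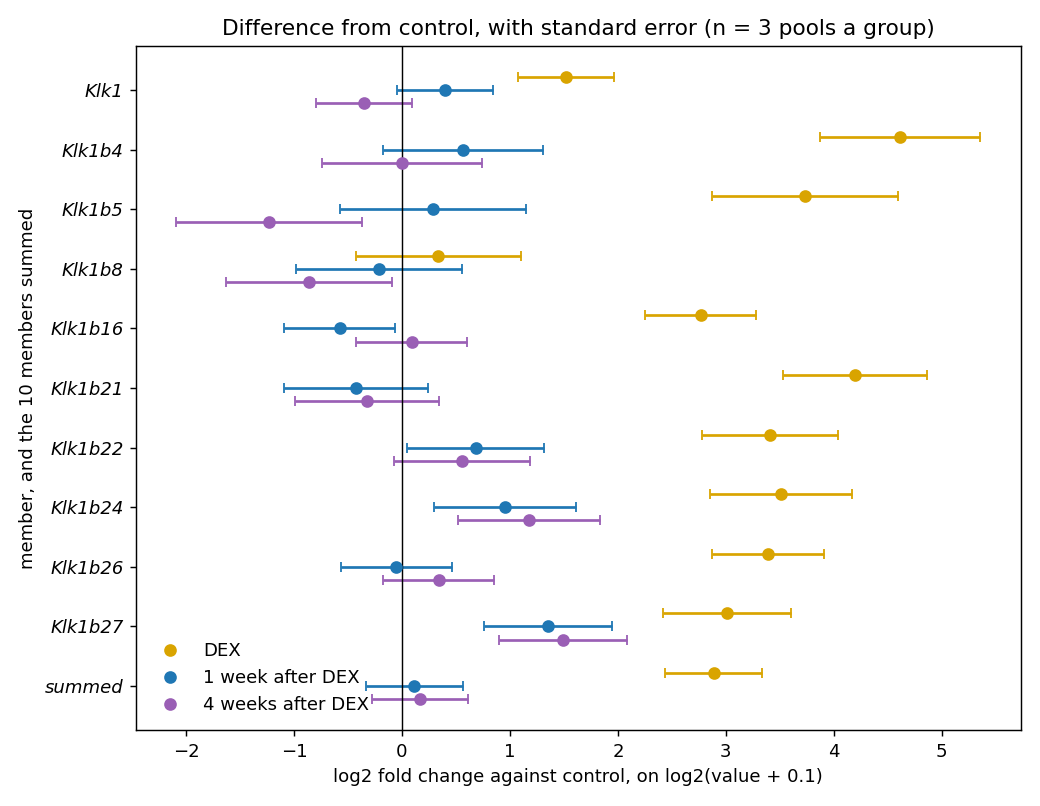
Log2 fold change against control (horizontal axis, on log2(value + 0.1)) with its standard error for each member and for the sum, on DEX and 1 and 4 weeks after it. The DEX points lie from 0.34 (*Klk1b8*) to 4.62 (*Klk1b4*), and the recovery points from -1.23 (*Klk1b5* at 4 weeks) to 1.49 (*Klk1b27* at 4 weeks), with *Klk1b24* and *Klk1b27* furthest to the right.

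The members ranked the pools of the DEX group alike. In 10 of 10 members the DEX pools stood in the order pool 3, pool 1, pool 2, and the highest was 1.33 times the lowest for *Klk1*, 2.68 times for *Klk1b16*, 8.84 times for *Klk1b4* and 2.44 times for the sum. The share of all genes tested with this order was not computed. The members are similar copies read in the same libraries, and *Klk1b8* had only 1, 0 and 5 reads in DEX pools 1, 2 and 3, so the count does not stand for separate observations. DEX pool 3 had 8323298 reads on genes and 1 read was worth 0.112 normalised counts there, against 0.0828 and 0.0818 in pools 1 and 2. In unscaled reads the order pool 3, pool 1, pool 2 held for 7 members. *Klk1* had 154, 147 and 143 reads in DEX pools 1, 2 and 3, *Klk1b24* had 91, 47 and 83, and *Klk1b22* had 12, 8 and 12. *Pomc* was at 4362, 8521 and 4241 in the same pools, so that the pool with the lowest members had the highest *Pomc*. *Fkbp5*, a glucocorticoid receptor target, was at 545.5, 230.1 and 353.7, lowest in the same pool as the members. The corticotroph genes *Tbx19*, the factor that drives *Pomc*, and *Avpr1b*, a vasopressin receptor, stood in the same order as the members, at 769.4, 497.7 and 1490 and at 103.2, 67.9 and 130.1 in pools 1, 2 and 3. All their DEX pools lay above control, where they averaged 302.0 and 32.6 (limma F test adjusted p = 0.227 and 0.413). The listed corticotroph genes *Crhr1* (52.7, 59.2 and 138.3), *Pcsk1* (241.6, 244.4 and 202.3) and *Neurod1* (28.9, 27.1 and 28.6) stood in other orders. Their DEX pools overlapped control. The part of any of these in the members' spread was not tested.

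One week after withdrawal the sum was highest in pool 2 (33.1), the pool with the highest *Pomc* (284700) and the lowest *Fkbp5* (19.5) of its group, and lowest in pool 3 (12.4), with *Pomc* at 43610 and *Fkbp5* at 68.3. Pool 2 was the highest of its group for 6 of the members, *Klk1*, *Klk1b5*, *Klk1b16*, *Klk1b21*, *Klk1b24* and *Klk1b26*. The share of all genes tested that were highest in this pool was not computed. *Klk1b27* was highest in 1 week pool 1 instead. Pool 2 had a scaling factor of 0.702, the lowest of the 12 libraries, so that 1 read was worth 0.127 there. In plain RPM, which leaves that factor out, it was highest for 3 members, *Klk1*, *Klk1b16* and *Klk1b21*. These orders without the scaling were computed after seeing the data.

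Within groups, deviations from the group mean of log2(value + 0.1) were correlated over the 12 libraries for each of the 45 pairs of members. Pearson r ranged from -0.38 (*Klk1* and *Klk1b22*) to 0.92 (*Klk1b16* and *Klk1b26*), with a median of 0.23 and 33 pairs above 0. *Klk1* and *Klk1b5*, the closest pair in sequence, had 0.78. The libraries share depth and scaling across all genes, and reads given to the wrong copy could add to r, so these values describe the libraries and carry no p. With a pseudocount of 1, which weighs the near-zero values less, the median was 0.45.

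Of 15756 genes with a mean of at least 1, the 5 whose log2 values over the 12 libraries were most like the sum of the members were *Tmem37* (Pearson r 0.973), *Csad* (0.957), *Olfml3* (0.950), *Pik3ip1* (0.949) and *4833405L11Rik* (0.948). *Tmem37*, a membrane protein related to calcium channel γ subunits, was at 20.7 ± 5.23 normalised counts in control, 200.6 ± 124 on DEX, 18.4 ± 8.74 at 1 week and 13.7 ± 3.94 at 4 weeks. *Csad*, an enzyme of taurine synthesis, moved over a smaller range, from 42.9 ± 5.07 in control to 82.0 ± 18.4 on DEX and 40.8 ± 4.47 and 45.5 ± 0.896 after it (SD, n = 3 pools each). Like the members, these genes were chosen for this pattern.

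Other kallikreins in the table were mostly near or at 0. Of 17 listed non-members, 8 passed the filter and 0 were called by the limma F test, by edgeR or by DESeq2; 1 had an unadjusted p under 0.05. That gene was *Klk1b11*, which lies inside the cluster and had 0.157, 0 and 0 normalised counts in control, 0.580, 1.31 and 0.448 on DEX, 0.0950, 0.255 and 0 at 1 week and 0 throughout at 4 weeks. Its DEX pools lay above control, but the F test gave an adjusted p of 0.138 with limma, 0.263 with edgeR and 0.151 with DESeq2. Relative to DEX it was called lower at 4 weeks (log2 fold change -3.01, SE 0.66, limma adjusted p = 0.0459), the single call among the 8 at either recovery time. *Klk1b9*, which binds epidermal growth factor, had at most 4 reads in a library (limma adjusted p = 0.844), and *Klk10* at most 8 (0.634). *Klk1b3*, the γ subunit of the nerve growth factor complex, lies between *Klk1b24* and *Klk1b4* and is named here after its values were seen. It was at 0.296 ± 0.33 in control and 0.149 ± 0.259 on DEX (limma F test adjusted p = 0.946).

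The genes next to the cluster were taken by position, as the 5 nearest protein-coding genes on each side that are not kallikreins. Of these 10, 7 passed the filter, with a median log2 fold change of 1.23 in DEX against control. The limma F test called 0, edgeR 2 and DESeq2 3 of them, and 3 had an unadjusted limma p under 0.05. These 3 all lie directly beyond *Klk1* and are named after their values were seen: *1700028J19Rik*, *2410002F23Rik* and *Acp4*. *1700028J19Rik* was at 4.09, 1.65 and 3.37 normalised counts in control and 12.8, 6.79 and 18.6 on DEX (log2 fold change 2.01, SE 0.53; F test adjusted p = 0.0649 with limma, 0.00863 with edgeR, 2.13e-07 with DESeq2). *2410002F23Rik* had means of 117.9 and 287.0 (F test adjusted p = 0.109 with limma, 0.0333 with edgeR, 0.000144 with DESeq2). *Acp4*, an acid phosphatase, had 7.39 and 23.5 (0.234, 0.0797 and 0.0032 in the same order). Relative to DEX, limma called *1700028J19Rik* lower at 1 week (adjusted p = 0.0477) and at 4 weeks (0.023), and *2410002F23Rik* lower at 4 weeks (0.0473). *2410002F23Rik* and *Acp4* overlap on opposite strands, as do *1700028J19Rik* and *Gm36864*, and the reads of such a pair cannot be told apart.

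**Figure D4:**
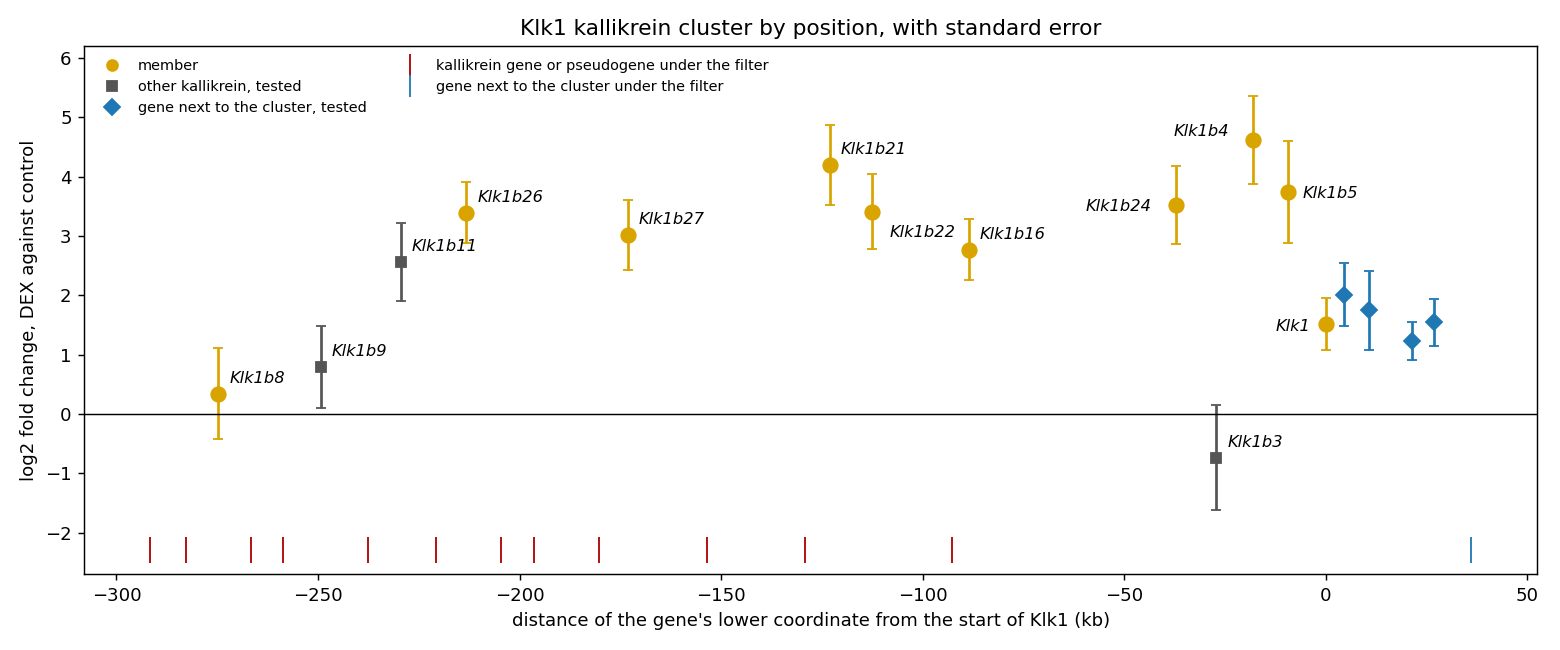
Log2 fold change in DEX against control with its standard error (vertical axis) by distance from the start of *Klk1* in kb, for members, other tested kallikreins and the genes beyond *Klk1*; ticks at the bottom mark genes under the filter. Members from *Klk1b26* to *Klk1b5* lie between 2.77 and 4.62, *Klk1b3* lies among them at -0.73, and *Klk1b8* at the far left is at 0.34.

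The substrates, receptors and inhibitors of kallikreins were followed in lists of genes named for their role. In the kinin system 11 of 11 genes passed the filter and the F test over the 4 groups called 0 with limma or edgeR and 1 with DESeq2; 3 had an unadjusted limma p under 0.05. *Kng2*, a kininogen and hence a source of kinins, was at 0.719 ± 0.705 in control and 1.62 ± 0.485 on DEX, then at 0.0317 ± 0.0549 and 0.0601 ± 0.104 (F test adjusted p = 0.076 with limma, 0.0964 with edgeR, 0.00348 with DESeq2). Relative to DEX, limma called it lower at 1 week (log2 fold change -3.74, SE 0.76, adjusted p = 0.0421) and at 4 weeks (-3.57, SE 0.76, 0.0401). *Kng1*, the other kininogen, had no read in the DEX and 1 week libraries and 0.246 ± 0.143 in control (limma adjusted p = 0.428). *Serping1*, the C1 inhibitor, which also blocks plasma kallikrein, was at 13.5 ± 3.15 in control, 10.7 ± 5.01 on DEX and 22.9 ± 6.13 at 4 weeks (limma adjusted p = 0.49). The bradykinin receptor gene *Bdkrb2*, named here after its values were seen, was at 28.1 ± 9.34 in control and 29.5 ± 2.41 on DEX (limma adjusted p = 0.777).

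Of 11 genes listed as other kallikrein substrates and inhibitors, 10 were tested and the F test called 0 with limma, edgeR or DESeq2; 3 had an unadjusted limma p under 0.05. *Serpina3n*, a serine protease inhibitor, was at 41.9 ± 43.6 in control, 64.4 ± 15.5 on DEX, 11.03 ± 12.1 at 1 week and 13.4 ± 13.6 at 4 weeks (limma adjusted p = 0.245). *Egf*, whose precursor is bound and cut by some *Klk1b* products, was at 34.9, 44.2 and 22.5 in control and 67.3, 48.9 and 57.1 on DEX (limma adjusted p = 0.463). *Serpina3c*, the homologue of the kallikrein-binding protein, was at 4.56 ± 0.929 in control and 8.41 ± 5.75 on DEX (limma adjusted p = 0.494).

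Markers of cell types that could carry kallikrein RNA into the sort were summed per pool. The 6 salivary gland genes summed to at most 1.74 in any library, and 4 of the 6 were at 0 in all DEX pools. The 5 lactotroph genes ranged from 31980 to 79230 in control and from 48780 to 73960 on DEX, so these groups overlapped. The 4 somatotroph genes ranged from 79160 to 221600 in control and from 67940 to 104500 on DEX. Their sums overlapped too, as did those of the gonadotroph, thyrotroph, and stem and folliculostellate genes. The lactotroph and somatotroph sums are almost wholly *Prl* and *Gh* and hardly reflect the other genes listed. Of the somatotroph genes, *Pappa2* was higher in all DEX than in all control pools (mean 29.7 in control and 49.9 on DEX, limma F test adjusted p = 0.507). *Ghrhr* (92.1 and 102.0) and *Pou1f1* (199.3 and 183.3) overlapped. The 5 melanotroph genes ranged from 105.2 to 148.4 in control and from 87.3 to 100.7 on DEX. Of these, *Esm1*, which endothelial cells also express, was lower in all DEX pools (mean 37.4 in control and 3.42 on DEX, limma F test adjusted p = 0.0454), while *Pcsk2* (52.0 and 47.3) and *Drd2* (35.9 and 42.3) overlapped.

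The 4 endothelial genes ranged from 6.45 to 59.3 in control and from 2.82 to 7.68 on DEX, so their sums overlapped. *Kdr* and *Emcn* among them differed over the 4 groups (limma F test adjusted p = 0.0263 and 0.0422) and were lower in all DEX than in all control pools, *Emcn* being at 0 in DEX pool 3. The 4 macrophage genes ranged from 42.6 to 116.2 in control and from 15.2 to 22.6 on DEX. *Cd74*, an antigen presentation gene, carried most of this difference, with means of 58.6 and 6.19 (limma F test adjusted p = 0.0018). *C1qa* was also lower in all DEX than in all control pools, with means of 2.37 and 1.06 (limma F test adjusted p = 0.378). *Csf1r* (9.61 and 10.98) and *Ptprc* (0.867 and 0.765) overlapped. Marker genes other than *Pomc* and *Prl* are named after their values were seen, and the part of cell composition in the members' difference was not tested.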

How the data were processed

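Sorted cells of 12 pools were amplified with the SMART-V4 kit, made into Nextera XT libraries and sequenced on 1 lane. Per the labels and methods, the authors trimmed reads with Trim Galore 0.6.5, aligned them to GRCm38 with STAR 2.7.1a (Ensembl release 98) and counted them with featureCounts 2.0.0 (mapping quality 20 or more). The deposited values are a normalised signal, CPM of a library size scaled by edgeR. All 271881 values above 0 (100%) were whole multiples of 1 read within 1e-06 reads, so reads were recovered; the design had taken the values for plain CPM, and its test was kept. limma 3.58.1 (R 4.3.3, trend) was fitted to log2(value + 0.1) of 24736 genes with 12 libraries in 1 model, and an adjusted p under 0.05 (Benjamini-Hochberg) was called. edgeR 4.0.16 and DESeq2 1.42.0 on recovered reads, other pseudocounts, filters, scalings and weights, a replicate block and each library left out were alternatives. Tests were checked on simulated data.

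The members and lists were chosen with earlier results of these data known. Named genes were the members, in the lists of other kallikreins, kinin system, and substrates and inhibitors the genes called by the F test or else the 3 with its smallest p, the 5 genes most like the sum, and *Pomc*, *Prl* and *Fkbp5*. A group with at most 3 reads in every library was at the floor, which covers counting error only, as reads carry no molecular identifiers. Gene models and transcripts came from GENCODE M21, and coding sequences were aligned in place of proteins. Libraries of 1 group differed beyond sampling noise (chi-square per gene 15.9 to 144.6). They are separate pools by the labels, so p-values measure the spread between pools.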

Additional observations from a re-analysis of the deposited data

Results flagged for a closer look

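*Klk1b19-ps*, an unprocessed pseudogene of the cluster that was part of no comparison, had a mean of 0.344 normalised counts in the DEX pools, from 3, 0 and 7 reads in pools 1, 2 and 3, and no read in the 9 other libraries. It was listed for a closer look as a signal outside the genes compared that lies above control. All 11 kallikrein pseudogenes together had 1 read in control, 13 on DEX, 0 at 1 week and 4 at 4 weeks. Whether these reads come from the pseudogene or from a neighbouring copy was not tested.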

How the results depend on the processing

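The summed signal kept its direction and size under 6 other settings and without any 1 library, at log2 fold changes of 2.55 to 3.19 for DEX against control; it was not fitted with edgeR, DESeq2, array weights or only 2 groups. The calls of single members moved. Called members in DEX against control (3) were 7 with a pseudocount of 0.5, 6 with 1, 7 in plain RPM, 6 with DESeq2, 0 with only the 2 groups compared and 7 with array weights, and 0 to 7 without 1 library. Called members among the 4 groups (4) were 7 in plain RPM, 8 with DESeq2 and 9 with array weights, and 0 to 5 without 1 library; they were 0 without DEX pool 1 or 3 and 2 without pool 2 at 4 weeks. Neighbouring genes called (0) were 2 in plain RPM, 2 with edgeR, 3 with DESeq2 and 2 with array weights, and 0 to 1 without 1 library (1 without DEX pool 2 or without pool 2 or 3 at 1 week). Array weights called 1 gene each of the other kallikreins, the kinin system and the substrates and inhibitors, and DESeq2 called 1 of the kinin system. Of all genes tested, the comparison among the 4 groups called 0.509% in plain RPM, 2.97% with DESeq2 and 4.32% with array weights. DEX against control called 0.198%, 0.768% and 0.671% in the same order. It called 0.198% and 0.218% with pseudocounts of 0.5 and 1, and 0.00404% (1 gene) with only the 2 groups compared. Shares of all genes are not given for the fits without 1 library. DESeq2 did not call *Klk1b4* among the 4 groups and gave *Klk1b8* no adjusted p. The cause of these moves was not tested. No label pairs the pools by replicate number, and 18 same-numbered pairs of libraries had correlations of -0.294 to 0.397, 7 of them above 0.1. All 3 pairs of control and 1 week were above 0.1 (0.136 to 0.397). With the replicate block, 0 members were called at 1 week against control with 12 libraries and, in a fit added after seeing the data, with those 6 alone, as without it. In each of these fits 0 genes of all those tested were called, so they cannot set the members apart from other genes. With the number as a replicate block, 4 members were called in each comparison. That fit called 0.344% of all genes among the 4 groups and 0.137% in DEX against control. It also called 1 gene of the substrates and inhibitors, and no other count moved. Fitted log2 fold changes of *Klk1b4* and *Klk1b22* depend on the pseudocount, from 1.85 and 0.98 with 1 to 8.05 and 6.36 with edgeR, since control had no read. With a pseudocount of 1 those of *Klk1b5*, *Klk1b21*, *Klk1b24* and *Klk1b27* were 2.12, 3.07, 2.28 and 2.22, and that of *Klk1b5* was 2.79 without control pool 1. Plain RPM moved the median of all genes in DEX against control to 0.10. With 3 pools a group and 1 read worth up to 0.127 normalised counts, differences in *Klk1b8* and between recovery and control were not resolved.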
